A study of Mus musculus with 37 samples.

Results

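The genes described here encode collagens, the enzymes and chaperones that fold and process them, and other proteins of the extracellular matrix. The list held 48 mouse genes, chosen by symbol, and 46 of them had a probe set that names them alone, of 12393 genes with such a probe set on the array. Fbn1 and Loxl2 were not analysed here. Each gene is given by its brightest probe set on average over the arrays, and all 46 genes lay above the limit on dim signals, so no member was lost to that filter.

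The arrays measured RNA from whole mammary glands of 37 female C57BL/6 mice that were 9 weeks old at the start and were followed for 6 weeks. The group AL had 10 mice that ate ad libitum, and the group AL+EX had 9 mice that ate ad libitum and had a running wheel. The group CR had 9 mice under calorie restriction of 30%, and the group CR+EX had 9 restricted mice with a running wheel. Restricted mice received 70% of the calories of AL mice, with the other nutrients at the full AL level. All groups were of the same strain and sex, and the left and right thoracic glands of each mouse, about 60 mg each, were pooled. Each mouse had 1 array and its own animal number. CR and CR+EX are called restricted below (18 arrays), and AL and AL+EX unrestricted (19 arrays).

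Fibrillar collagens are made as procollagen chains. Prolyl hydroxylases and lysyl hydroxylases modify the chains in the endoplasmic reticulum, where the chaperone encoded by Serpinh1 holds the helix in its folded form. After secretion the propeptides are trimmed, fibrils assemble and lysyl oxidases cross-link them, while metalloproteinases and their inhibitors set the rate of breakdown. In the mammary gland a basement membrane of laminin, nidogen and collagen IV surrounds the epithelium, adipocytes and vessels, and a collagen-rich stroma lies around the ducts.

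Values are Affymetrix signal intensities, and differences are on the scale log2(signal + 16). Errors given as ± are standard errors of the limma fit unless SD is written, and a gene passed the threshold where its p, adjusted by Benjamini and Hochberg over the 9295 genes tested, was under 0.05. Counts at an unadjusted p are descriptions only. Shares of all genes printed near them are at the adjusted threshold unless an unadjusted p is named for the share. The trimmed mean signal lay between 500.16 and 500.23 on every array. Summed marker signals ran from 4002 to 32810.4 for luminal epithelium (11 genes) and from 64469 to 165789 for adipocytes (8 genes). For skeletal muscle (8 genes) they ran from 91213 to 332512, above those of luminal epithelium, and the source of this signal was not tested. No gene found of any marker list had a median signal of 0. This also held for the T lymphocyte list, with 3 of 7 genes above the limit on dim signals, so it is no check of the labelled tissue. The B lymphocyte mean was 7.70 to 9.86 in 15 arrays (4 AL, 4 AL+EX, 4 CR and 3 CR+EX) and 6.23 to 7.08 in the other 22 arrays. The ratio of the 3' to the 5' Gapdh probe set, a sign of RNA quality, was above 2 in 5 arrays (3 AL and 2 CR+EX). The animal numbers were cut into blocks of 24 numbers, which gave 4 runs with arrays. Run 1 is 2 to 22 (8 arrays) and run 2 is 26 to 48 (11 arrays). Run 3 is 50 to 70 (10 arrays) and run 4 holds the highest numbers (8 arrays). Only run 4 is set apart by a wide gap in the numbers. Each run holds all 4 groups, the labels do not call a run a batch, and all 8 arrays of run 4 were among the 15 that were high in B lymphocyte genes. Replicates named below are numbered within their group in accession order. In bulk tissue, fewer cells of a type and less RNA per cell cannot be told apart.

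Over both wheel states, calorie restriction raised 8 of the 46 matrix genes and lowered 1. In the same contrast 8.75% of all genes tested passed the threshold, 4.19% higher and 4.56% lower, against 17.4% of the matrix genes higher. The list was chosen with earlier results of these data known, so its shares are no independent evidence for the list. The genes that rose were Serpinh1, Mgp, Col15a1, Fbln1, Col14a1, Pcolce, Col6a1 and P4ha1, and the gene that fell was P4ha2. The major fibrillar collagen genes Col1a1, Col1a2 and Col3a1 did not pass. The difference was above 0 in 39 of the 46 genes (84.8%) and in 44.8% of all genes, and its median was 0.21 over the matrix genes and -0.02 over all genes. Without the 8 arrays of run 4, 4 genes rose and none fell, and 8.7% of the matrix genes passed against 9.32% of all genes in either direction and 3.77% higher. The 4 genes were Fbln1, Mgp, Pcolce and Serpinh1. In a fit that gives each run its own level, called the run block, 16 matrix genes rose and 1 fell against 18.8% of all genes, and 9 rose and 2 fell against 17.6% of all genes when run 4 was also left out. The split of all genes depended on the scaling: 389 were higher and 424 lower as deposited, 491 and 180 after median centring, and 425 and 313 after quantile normalization, with 11 and 9 matrix genes higher and none lower under these scalings.

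**Figure D1:**
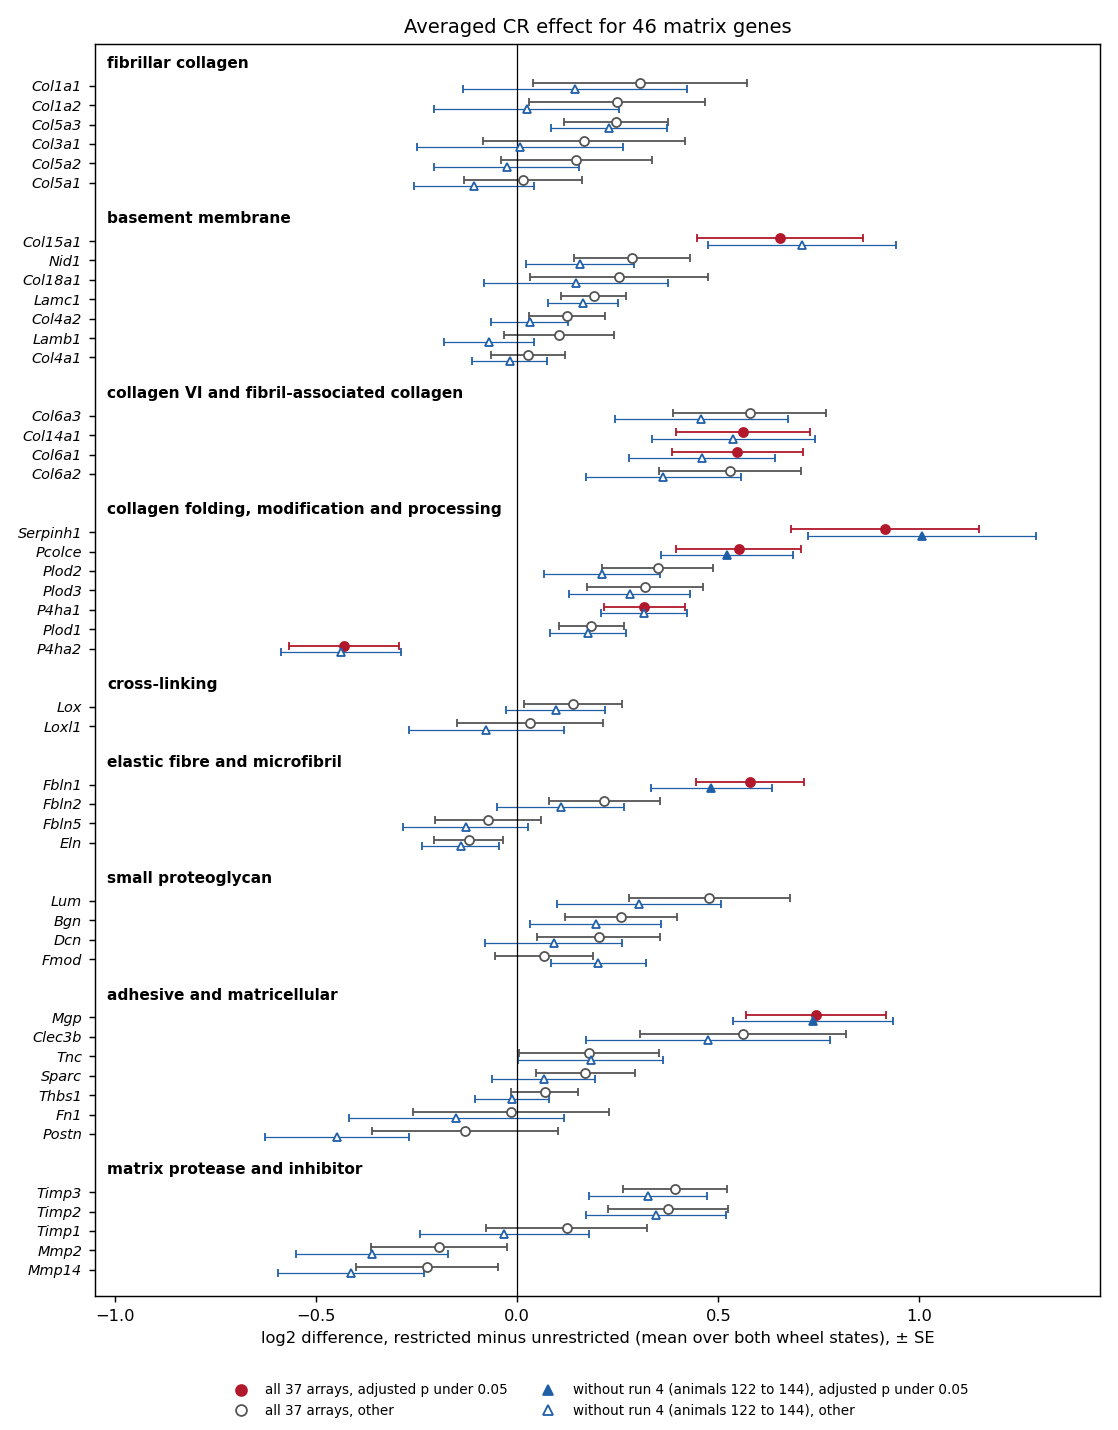
Averaged calorie restriction effect of 46 matrix genes, as the log2 difference of restricted minus unrestricted animals with bars of ± 1 standard error, grouped by role. Circles show all 37 arrays (filled red where the adjusted p was under 0.05) and triangles show the fit without run 4 (filled blue likewise). The filled circles lie between 0.32 and 0.91 in 8 genes and at -0.43 in P4ha2, while the open circles of the fibrillar collagens lie between 0.01 and 0.30.

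Fibrillar collagens give tissue its tensile strength. None of the 6 genes passed by limma (0 with an unadjusted p under 0.05), and their differences ranged from 0.01 to 0.30 with a median of 0.21. Col1a1, the main chain of type I collagen, differed by 0.30 ± 0.27 (adjusted p = 0.53). Its signals had medians of 942, 914, 910.0 and 975 in AL, AL+EX, CR and CR+EX, and the ranges overlapped, from 508 to 2248 in AL and from 539 to 5182 in CR. A second, dimmer Col1a1 probe set differed in the other direction, by -0.17, and correlated with the first by r = 0.71 over 37 arrays. Col1a2, the partner chain, differed by 0.25 ± 0.22 (adjusted p = 0.533), and CR replicate 9 stood apart with 14575, the highest signal of that gene. Col3a1, which co-assembles with type I collagen, differed by 0.17 ± 0.25 (adjusted p = 0.743). Without run 4, Col1a1 differed by 0.14, Col1a2 by 0.02 and Col3a1 by 0.01. Between CR and AL alone, 5 of the 6 differences were above 0 with all arrays (median 0.05) and 0 of 6 without run 4 (median -0.27). Col5a3, a chain of the fibril-nucleating type V collagen, ran from 369 to 789 with a median of 477 in AL+EX. Its medians in AL, CR and CR+EX were 766, 741 and 759, and the ranges of all groups overlapped. It differed by 0.54 ± 0.18 between CR and AL+EX without passing (adjusted p = 0.116), and passed with the run block (0.58, adjusted p = 0.0136).

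Collagen folding, modification and processing held the most calls of any role, 3 of 7 genes higher and 1 lower. Serpinh1 encodes the collagen chaperone HSP47, and it had the largest difference of all members, 0.91 ± 0.23 (1.89-fold, adjusted p = 0.0108). Its signal ran from 194 to 2267 with a median of 1114 in AL, and from 218 to 1696 with a median of 1106 in AL+EX. In CR it ran from 1532 to 2539.9 with a median of 2020.1, and in CR+EX from 946 to 2443 with a median of 1701. The lowest restricted value was thus 946, while 7 of 19 unrestricted animals lay below the lowest of them and 4 of 18 restricted animals lay above the highest unrestricted one. The lowest unrestricted values were AL replicate 8 (194), AL+EX replicate 7 (218) and AL+EX replicate 6 (289), all in run 3. Within that run no restricted animal overlapped the unrestricted ones (1138 to 2020.1 against 194 to 1089), and the same held in run 1 (1364 to 1701 against 798 to 1286). In runs 2 and 4 the ranges overlapped. Such separation was not particular to Serpinh1. In run 3, with 5 animals per diet, it was also seen for Col14a1, P4ha1, Plod1, Plod3, Fbln1 and Mgp, and for P4ha2 in the other direction. In run 1, with 4 animals per diet, it was also seen for Col6a3, Col14a1 and Pcolce. In run 4, with 4 animals per diet, it was seen for Nid1, Col6a1, Col6a2, Plod2, Fbln1, Fbln2, Thbs1 and Timp3. The share of all genes that separate in this way was not counted, so these lists are descriptions only. A second Serpinh1 probe set gave a smaller difference of 0.21 (-0.04 between CR and AL, against 0.89 for the first) and correlated with the first by r = 0.59 over 37 arrays. With the mean of both probe sets the difference was 0.56 and the gene still passed (adjusted p = 0.0155).

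Pcolce encodes the enhancer of the protease that trims the carboxyl propeptide of procollagen. It rose by 0.55 ± 0.16 (1.46-fold, adjusted p = 0.0211). Its signal ran from 359 to 990.2 with a median of 599 in AL and from 297 to 1134 with a median of 612 in AL+EX. It ran from 669 to 1257 with a median of 774 in CR and from 725 to 1498 with a median of 922 in CR+EX. The groups overlapped, and 11 of 19 unrestricted animals lay below the lowest restricted one.

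P4ha1 and P4ha2 encode alternative catalytic subunits of prolyl hydroxylase, the enzyme whose product, hydroxyproline, stabilises the collagen helix, and they moved in opposite directions. P4ha1 rose by 0.32 ± 0.10 (1.25-fold, adjusted p = 0.0436). Its signals ran from 182 to 442 (median 338) in AL, from 202 to 348 (median 322) in AL+EX, from 282 to 463 (median 343) in CR and from 308 to 496 (median 361) in CR+EX. P4ha2 fell by 0.43 on the log2 scale (standard error 0.14, adjusted p = 0.0409). The signals of the gene ran from 226 to 530.2 (median 352) in AL, from 271 to 690.2 (median 370.4) in AL+EX, from 170.4 to 349.8 (median 291) in CR and from 164 to 448 (median 303) in CR+EX. All groups overlapped for both genes. With group means removed, the genes correlated by r = -0.35 over 37 arrays. Neither call was firm: P4ha1 did not pass with the mean of its probe sets (adjusted p = 0.167), and the call of P4ha2 was lost under median centring and quantile normalization.

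The promoter sequences of these 3 genes are shown because they mark the role with the most calls and its opposite movers. They are taken from RefSeq (assembly GRCm38.p6) and end just before the gene's outermost start, and capitals mark the letters GGGCGG or their reverse complement CCGCCC. Serpinh1 is at chr7:99353240-99353489 on the minus strand, P4ha1 at chr10:59323046-59323196 on the plus strand and P4ha2 at chr11:54100674-54100923 on the plus strand.
Serpinh1: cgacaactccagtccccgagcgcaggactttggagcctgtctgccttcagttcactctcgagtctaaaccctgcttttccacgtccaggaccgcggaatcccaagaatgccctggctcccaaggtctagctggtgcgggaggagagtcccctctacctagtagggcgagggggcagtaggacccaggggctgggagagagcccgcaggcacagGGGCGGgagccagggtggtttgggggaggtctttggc
P4ha1: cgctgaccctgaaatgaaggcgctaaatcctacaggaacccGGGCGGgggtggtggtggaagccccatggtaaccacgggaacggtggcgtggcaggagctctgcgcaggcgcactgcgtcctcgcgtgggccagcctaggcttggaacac
P4ha2: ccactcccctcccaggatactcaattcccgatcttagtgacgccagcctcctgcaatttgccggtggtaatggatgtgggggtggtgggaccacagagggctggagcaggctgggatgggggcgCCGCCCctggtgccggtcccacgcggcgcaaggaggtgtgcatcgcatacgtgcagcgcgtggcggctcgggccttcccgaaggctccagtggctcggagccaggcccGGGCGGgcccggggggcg
The motif GGGCGG was present, on either strand, in each of the 3 sequences, whose genes moved both up and down. Of the 48 genes, 32 had a RefSeq promoter window, 38 windows in all, and GGGCGG was found in 26 of these windows and in 35.7% of all 32851 windows of the table. The letters CCAAT were found in 14 of the 38 windows and in 37.4% of all windows, and TATAAA in 6 of the 38 and in 13.6%. The windows of Col4a1 and Col4a2, the collagen IV chain genes that lie head to head, overlapped by 78 bases on opposite strands.

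The lysyl hydroxylase genes, whose enzymes prepare lysines for cross-linking and sugar attachment, had differences of 0.35 for Plod2, 0.32 for Plod3 and 0.18 for Plod1, none past the threshold. Plod2 and Plod3 passed with the run block (adjusted p = 0.0176 and 0.0172). A second Plod2 probe set differed by only 0.05 (-0.12 between CR and AL) and correlated with the first by r = 0.55. The size of the Plod2 difference thus depended on the probe set. The medians of Plod2 were 316 in AL, 298 in AL+EX, 351 in CR and 377 in CR+EX, within ranges of 185 to 478, 163 to 375, 188 to 462 and 237 to 652. The medians of Plod3 were 1069.8, 912, 1285 and 1217 in the same order, within ranges of 577 to 1863, 574 to 1836, 942 to 1799.7 and 714 to 1704. The ranges of both genes overlapped in all groups. Neither of the 2 cross-linking enzymes passed by limma (0 with an unadjusted p under 0.05): Lox, a lysyl oxidase that starts collagen and elastin cross-links, differed by 0.14 ± 0.12 (adjusted p = 0.533) and Loxl1, of the same family, by 0.03 ± 0.18 (adjusted p = 0.944).

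**Figure D2:**
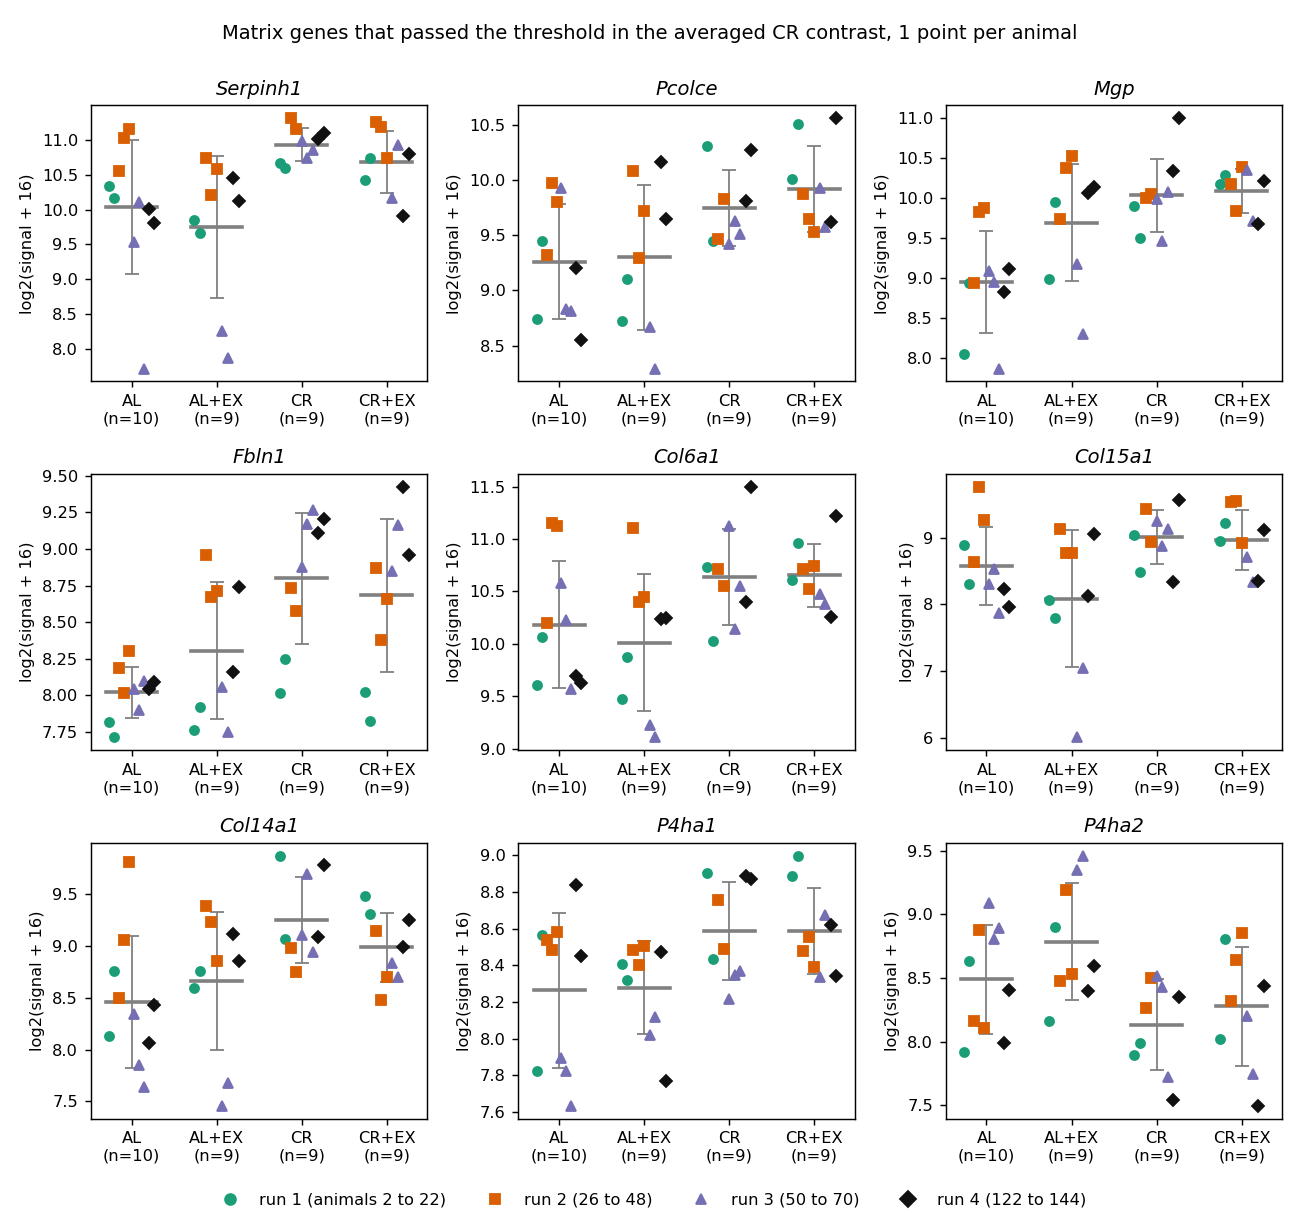
Log2(signal + 16) of the 9 matrix genes that passed the threshold in the averaged restriction contrast, 1 point per animal, by group, with marks for the run of animal numbers. Grey lines are group means and bars are ± 1 SD (n = 10 in AL and 9 in each other group). In Serpinh1 the 3 lowest points are unrestricted animals of run 3, and P4ha2 is the panel in which restricted animals lie lower.

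The microfibrillar collagen VI and the fibril-associated collagen XIV connect fibrils to cells and to each other. Differences in this role ranged from 0.53 to 0.58 in its 4 genes, a narrower band than in any other role with at least 4 genes, and 2 of the 4 passed. Col14a1 rose by 0.56 ± 0.17 (1.48-fold, adjusted p = 0.0301). Its signals ran from 183 to 885 (median 320) in AL, from 159 to 653 (median 447) in AL+EX, from 414 to 922 (median 527) in CR and from 341 to 699 (median 492) in CR+EX. Col6a1 rose by 0.55 ± 0.16 (1.46-fold, adjusted p = 0.0301), from medians of 1106 in AL and 1194 in AL+EX to 1488 in CR and 1544 in CR+EX. Its ranges were 744 to 2256, 535 to 2185, 1029 to 2877 and 1206 to 2367, so the groups overlapped. Col6a3 and Col6a2, the other chains of collagen VI, lay just outside the threshold, at 0.58 (adjusted p = 0.05) and 0.53 (adjusted p = 0.0527). The median signals of Col6a3 were 746, 928, 1397 and 1167 in AL, AL+EX, CR and CR+EX, and those of Col6a2 were 1136, 812, 1621 and 1406. The ranges of Col6a3 were 577 to 2457, 409 to 2104, 714 to 2176 and 980.0 to 2685, and those of Col6a2 were 765 to 2599.5, 505 to 2257, 954 to 3411 and 894 to 3059.9. The order of the groups differed between the chains, and the ranges overlapped. None of the 4 passed without run 4, where the differences were 0.36 to 0.54. Col14a1 and Col6a1 each lost their call when AL+EX replicate 6 or AL+EX replicate 7 was left out, with an adjusted p of up to 0.0551 and 0.0555, and when run 1 was left out (adjusted p = 0.14 and 0.123). Col14a1 also did not pass with the mean of its probe sets (0.55, adjusted p = 0.051).

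Of the 7 basement membrane genes 1 passed. Col15a1, a collagen of the zone where the basement membrane meets the stroma, rose by 0.65 ± 0.21 (1.57-fold, adjusted p = 0.0394). The signals of the gene ran from 217 to 853 (median 329) in AL, from 48.2 to 544 (median 265) in AL+EX, from 305 to 740.1 (median 510.2) in CR and from 307 to 735 (median 477) in CR+EX. The lowest restricted animal lay above 10 of 19 unrestricted ones, and no restricted animal lay above the highest unrestricted one. Its call was lost in 16 of 37 fits that left out 1 array. The remaining genes had differences of 0.03 to 0.28. Nid1 encodes nidogen, which links laminin to collagen IV, and differed by 0.28 ± 0.14 (adjusted p = 0.223). Lamc1, a laminin chain shared by most laminins, differed by 0.19 ± 0.08 (adjusted p = 0.133). Col4a1 and Col4a2, the main chains of collagen IV, differed by 0.03 ± 0.09 (adjusted p = 0.897) and 0.12 ± 0.09 (adjusted p = 0.464). A second Col4a1 probe set differed by 0.29 and correlated with the first by r = 0.68, so the value of Col4a1 depended on the probe set.

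Among the genes of elastic fibres and microfibrils, 1 of 4 passed. Fbln1 encodes fibulin-1, a matrix glycoprotein that binds fibronectin, laminin and elastin fibres. It rose by 0.58 ± 0.13 (1.49-fold, adjusted p = 0.00508), the smallest adjusted p of the list. Its signals ran from 194 to 299.6 (median 247) in AL, from 199.6 to 482 (median 269.6) in AL+EX, from 243 to 599.9 (median 453) in CR and from 211 to 671 (median 446) in CR+EX. AL animals lay in a narrow band, with an SD of 0.17 on the log2 scale against 0.45 to 0.52 in the other groups. The low end of both restricted groups came from run 1, where all 4 restricted animals were below 289. A second Fbln1 probe set differed in the same direction by 0.79. Eln, the elastin gene, differed by -0.12 ± 0.09 (adjusted p = 0.423) and Fbln5, whose product helps assemble elastic fibres, by -0.07 ± 0.13 (adjusted p = 0.792), while Fbln2 differed by 0.22 ± 0.14 (adjusted p = 0.349).

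Small leucine-rich proteoglycans bind collagen and set fibril spacing and width. None of the 4 passed by limma (1 with an unadjusted p under 0.05), and their differences were 0.07 to 0.48. Lum (lumican) differed by 0.48 ± 0.20 (adjusted p = 0.126) and passed with the run block (adjusted p = 0.0387). Its medians were 935 in AL and 967 in AL+EX against 1427 in CR and 1435 in CR+EX. The corresponding ranges, 573 to 2728, 363 to 2646, 890.1 to 3501 and 988 to 2625, overlapped. Dcn (decorin) differed by 0.20 ± 0.15 (adjusted p = 0.452), and its group medians ran from 6984 in AL to 9941 in CR+EX.

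Of the 7 adhesive and matricellular genes 1 passed. Mgp encodes matrix Gla protein, an inhibitor of calcification that is also secreted into the matrix of vessels and cartilage. It rose by 0.74 ± 0.17 (1.67-fold, adjusted p = 0.0055). The restriction difference of Mgp was 1.09 without a wheel and 0.40 with one, and the gap between these did not pass. The signals of the gene ran from 218 to 924 (median 477) in AL, from 299 to 1459.8 (median 973) in AL+EX, from 692 to 2039.5 (median 1015) in CR and from 802 to 1329.9 (median 1145) in CR+EX. AL had the lowest median, AL+EX overlapped all other groups, and 11 of 19 unrestricted animals lay below the lowest restricted one. Clec3b (tetranectin, a plasminogen-binding protein) differed by 0.56 ± 0.26 (adjusted p = 0.169) and passed with the run block (adjusted p = 0.0187). Its medians were 218 in AL, 385 in AL+EX, 403 in CR and 392 in CR+EX, within ranges of 53.2 to 615, 139.6 to 679, 204 to 911 and 143.6 to 761. The central adhesive glycoprotein gene Fn1 (fibronectin) differed by -0.02 ± 0.24 (adjusted p = 0.981), and Sparc, a collagen-binding matricellular protein gene, by 0.17 ± 0.12 (adjusted p = 0.428). Postn (periostin) differed by -0.13 ± 0.23 with all arrays and by -0.45 ± 0.18 without run 4, and neither passed (adjusted p = 0.789 and 0.11).

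Proteases and their inhibitors, 5 genes, showed none past the threshold by limma (2 with an unadjusted p under 0.05). Mmp2 and Mmp14, a gelatinase and the membrane protease that activates it, had the lowest differences of the role, -0.19 ± 0.17 and -0.22 ± 0.18 (adjusted p = 0.527 and 0.48). A second Mmp2 probe set of similar brightness differed by 0.09 and correlated with the first by r = 0.26, so the sign of the Mmp2 difference depended on the probe set. The inhibitor genes had positive differences: Timp3, whose product binds to the matrix, 0.39 ± 0.13 (adjusted p = 0.0508), Timp2, which also takes part in Mmp2 activation, 0.38 ± 0.15 (adjusted p = 0.108) and Timp1 0.12 ± 0.20 (adjusted p = 0.764). Another Timp2 probe set of similar brightness differed by only 0.04 and correlated with the one used by r = 0.46. The rest of the Timp2 probe sets differed by 0.03 to 0.24, so the size of the Timp2 difference depended on the probe set. With the run block Timp3 and Timp2 passed (adjusted p = 0.00646 and 0.042). In that fit without run 4 Mmp14 fell (adjusted p = 0.0393). The signals of Timp3 ran from 1881 to 4527 (median 2306) in AL, from 1423 to 4141 (median 2307) in AL+EX, from 2267 to 4525 (median 3279) in CR and from 3004 to 4237 (median 3593) in CR+EX. Those of Timp2 ran from 1359 to 3173 (median 1886), from 795 to 3013 (median 1952.5), from 1603 to 5147 (median 2272) and from 1729 to 3058 (median 2425) in the same order. The restricted medians were above the unrestricted ones in both genes, and the ranges overlapped.

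Between CR and AL, 2 of 46 matrix genes passed against 0.441% of all genes: Mgp rose by 1.09 ± 0.24 (2.13-fold, adjusted p = 0.0387) and Fbln1 by 0.78 ± 0.19 (1.72-fold, adjusted p = 0.0465). Mgp lost this call in 8 of the 37 fits without 1 array (AL replicates 1, 7 and 8 and CR replicates 4, 5, 7, 8 and 9, adjusted p up to 0.0862), Fbln1 lost it in 20 (adjusted p up to 0.0908), and neither passed without run 4 (adjusted p = 0.0975 for each). Between CR+EX and AL, Mgp rose by 1.14 ± 0.24 (2.21-fold, adjusted p = 0.0129), the only matrix gene to pass there, against 0.624% of all genes, and it passed in all 37 fits without 1 array. Between CR+EX and AL+EX no matrix gene passed by limma (13 had an unadjusted p under 0.05) against 1.65% of all genes, and the smallest p was that of Col15a1 (0.88 ± 0.29, adjusted p = 0.119). Between CR and AL+EX none passed (14 with an unadjusted p under 0.05) against 1.97% of all genes, and Serpinh1 came closest (1.19 ± 0.33, adjusted p = 0.0514). These pairs share groups with each other and with the averaged contrast, so the Mgp values are not separate observations of the AL level. With the run as a block 5, 2, 4 and 10 genes passed in these 4 comparisons, against 6.16%, 3.73%, 6% and 8.1% of all genes. The block added Clec3b, Col14a1 and Serpinh1 between CR and AL, and Col15a1, Plod2, Serpinh1 and Timp3 between CR+EX and AL+EX. Without run 4 the comparisons gave 0, 1, 0 and 0 matrix genes in the same order by limma (10, 5, 11 and 9 with an unadjusted p under 0.05), against 0.624%, 1.27%, 2.33% and 0.882% of all genes. With the run block and without run 4 they gave 3, 3, 4 and 5, against 5.9%, 4.12%, 6.46% and 5.68%.

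For the running wheel, no matrix gene and no gene of the array passed the threshold in the averaged wheel contrast by limma. At an unadjusted p under 0.05, 4 of the 46 genes (8.7%) and 2.86% of all genes would have counted. Sparc had the smallest p of the list, with -0.29 ± 0.12 (p = 0.0221, adjusted p = 1). Its signals ran from 5420.1 to 13229 (median 8014) in AL, from 4534 to 9807 (median 6929) in AL+EX, from 6132 to 13827 (median 8911) in CR and from 5656 to 10907 (median 7683) in CR+EX, all overlapping. Between AL+EX and AL alone, where no gene of the array passed, Mgp differed most, by 0.75 ± 0.24 (adjusted p = 0.633), and 3 matrix genes had an unadjusted p under 0.05. Between CR+EX and CR, where also no gene passed, Mmp2 differed by 0.51 ± 0.24 (adjusted p = 1), and it was the 1 matrix gene with an unadjusted p under 0.05. Mmp2 had medians of 1246 in AL, 1379 in AL+EX, 803 in CR and 1466 in CR+EX, within ranges of 596 to 2779, 982 to 2184, 548 to 1884 and 729.6 to 2166, all overlapping.

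Whether restriction acted differently with and without a wheel was tested as an interaction, and no gene passed by limma (3 matrix genes had an unadjusted p under 0.05). The smallest p belonged to Col4a2 (0.44 ± 0.19, p = 0.024, adjusted p = 1), followed by values for its neighbour Col4a1 of 0.40 ± 0.18 (adjusted p = 1). Col4a2 had medians of 1785 in AL, 1541 in AL+EX, 1558 in CR and 1826 in CR+EX, within overlapping ranges of 1211 to 2435, 1055 to 2052, 1239 to 2405 and 1582 to 2446. Col4a1 had medians of 3097, 2324, 2589 and 2877 in the same order. Both genes thus had lower medians in AL+EX and CR than in AL and CR+EX, a difference that did not pass. The largest interaction value of the list was that of Mgp, -0.69, which also did not pass. Its restriction difference was 1.09 without a wheel and 0.40 with one.

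The restriction difference of the matrix genes varied between the runs of animal numbers. Its median over the 46 genes was 0.27 in run 1, -0.14 in run 2, 0.49 in run 3 and 0.58 in run 4. Over all genes the medians were -0.03, -0.04, -0.03 and 0.00. The difference had the same sign in all 4 runs in 10 of the 46 genes (21.7%) and in 27.5% of all genes. Among the called genes it was so in Serpinh1 (0.60, 0.44, 2.12 and 0.60 in the order of the runs), Mgp (0.98, 0.20, 1.25 and 0.77), Fbln1 (0.23, 0.17, 1.10 and 0.91), Col15a1 (0.66, 0.20, 1.42 and 0.49), P4ha1 (0.53, 0.05, 0.48 and 0.30) and P4ha2 (-0.23, -0.07, -1.07 and -0.39). Col14a1 went the other way in run 2 (-0.32 against 0.87, 1.25 and 0.66), as did Col6a1 (-0.09) and Pcolce (-0.03). In that run Col1a1 and Fn1 were also lower in restricted animals.

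**Figure D3:**
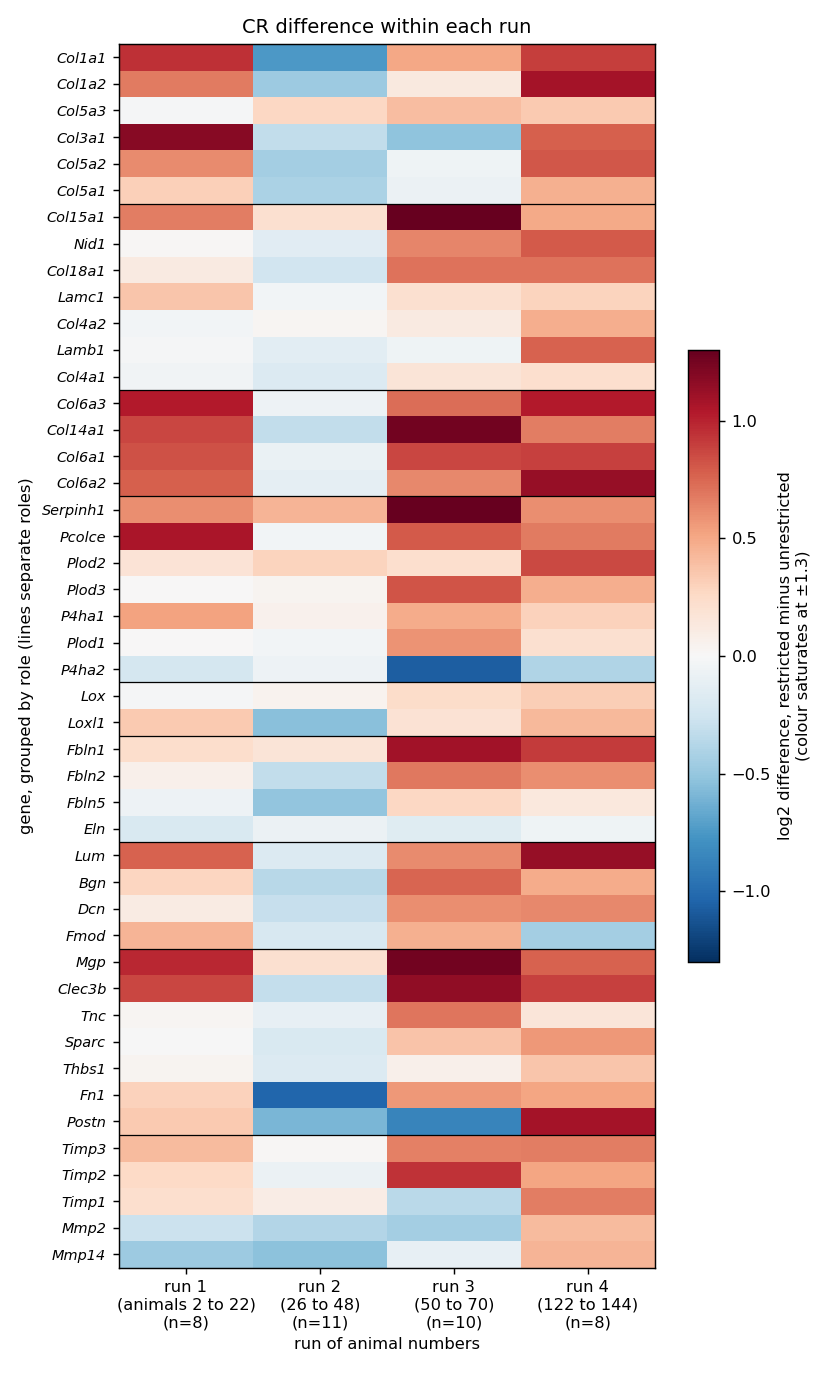
Restriction difference (log2, restricted minus unrestricted animals) of each matrix gene within each run of animal numbers, grouped by role, red where restricted animals were higher and blue where they were lower. The column of run 2 is pale or blue for most genes (median -0.14), while the columns of runs 3 and 4 are mostly red (medians 0.49 and 0.58).

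An F test of the restriction difference by run, chosen after these values were seen, was past the threshold for 92 genes (0.99% of those tested), among them Fbln1 (adjusted p = 0.0299) and Col14a1 (adjusted p = 0.0372). Serpinh1 came next with an adjusted p of 0.0601. At an unadjusted p under 0.05 it counted 24 of the 46 matrix genes (52.2%) and 17.7% of all genes. Left out in turn, the runs gave 3 genes higher and 1 lower without run 1 (8.33% of all genes), 15 higher and 1 lower without run 2 (6.29%) and none without run 3, where 11 matrix genes had an unadjusted p under 0.05 and 0.742% of all genes passed. The median difference of the matrix genes was 0.17 without run 3, with 37 of 46 above 0, and 0.15 without run 4, with 32 of 46 above 0.

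The mean over the 46 genes in each animal showed the same spread. It was 9.74 ± 0.36 (SD, n = 10) in AL, 9.65 ± 0.43 (SD, n = 9) in AL+EX, 9.93 ± 0.26 (SD, n = 9) in CR and 9.93 ± 0.21 (SD, n = 9) in CR+EX. The lowest mean was 8.94, in AL+EX replicate 7, and the highest 10.5, in CR replicate 9. The unrestricted groups were wider: the median SD of a matrix gene was 0.511 in AL and 0.577 in AL+EX against 0.41 in CR and 0.394 in CR+EX, and the median over all genes was 0.337, 0.358, 0.288 and 0.299. No test was run on these means or SDs.

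**Figure D4:**
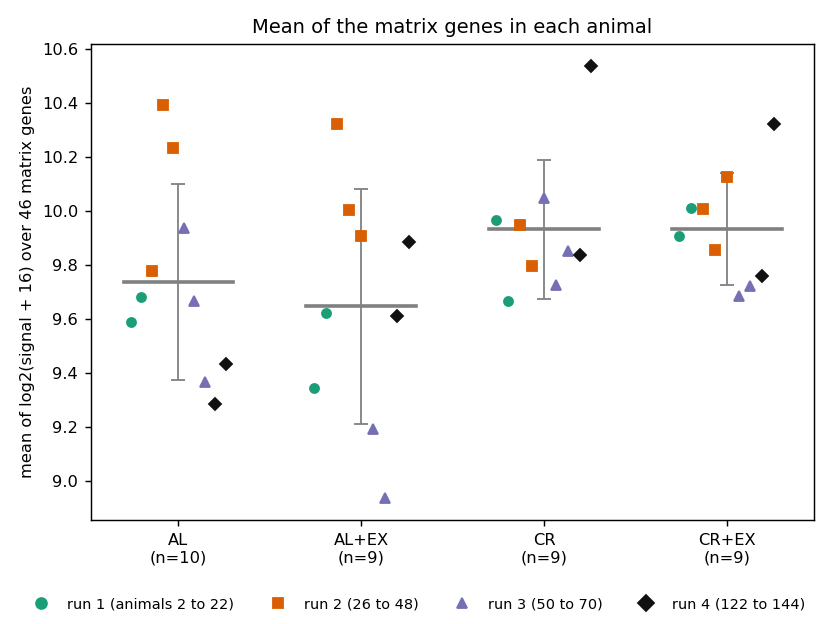
Mean of log2(signal + 16) over the 46 matrix genes in each animal, by group, with marks for the run of animal numbers; grey lines are group means and bars are ± 1 SD. Restricted animals lie between 9.67 and 10.5, and unrestricted animals spread from 8.94 to 10.4.

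The matrix genes varied together from animal to animal. With the group means removed, 902 of 1035 gene pairs had a correlation above 0 over the 37 arrays, 361 were above 0.5 and the median was 0.40, against 0.01 over pairs of all genes. The points share arrays and runs, so these are descriptions only. The highest pair was Col6a2 with Col6a3 (r = 0.95), and Col6a1 correlated with them by 0.91 and 0.93. Col1a1 and Col1a2 correlated by 0.90, Col3a1 and Col5a2 by 0.87, and Col4a1 and Col4a2 by 0.77. The median within a role was highest for the collagen VI group (0.81), then for the fibrillar collagens (0.70), and Col6a1 had the highest median with all other members (0.61). Serpinh1 had its highest correlation with Col15a1 (r = 0.78) and correlated with Mgp by 0.68 and with Col1a1 by 0.57. Fmod (fibromodulin), Lox and P4ha2 stood apart, with medians of -0.12, -0.04 and 0.03, and Lox correlated with P4ha2 by 0.52 and with P4ha1 by -0.44.

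**Figure D5:**
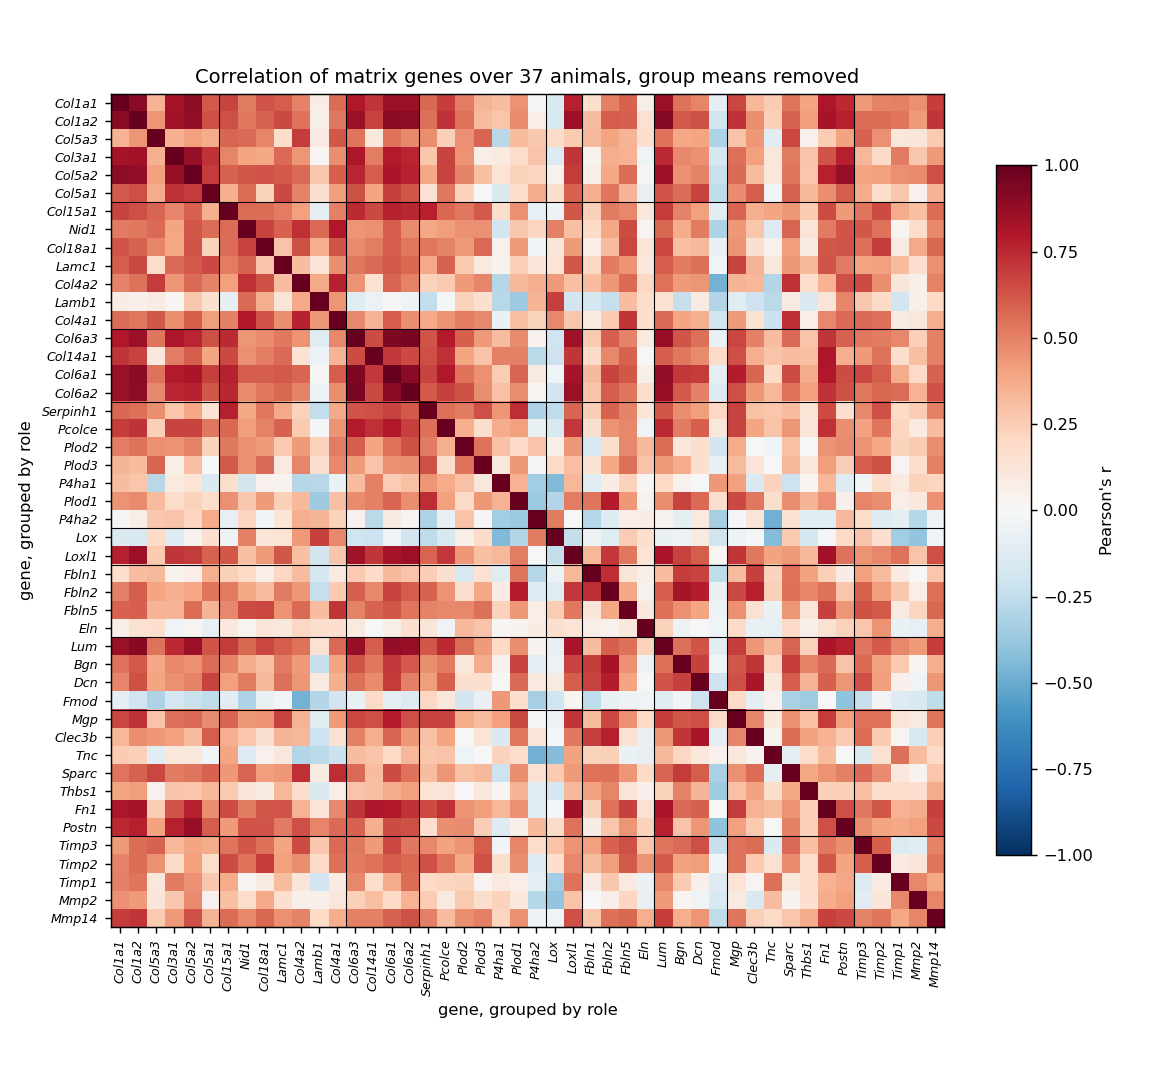
Pearson correlation between matrix genes over 37 animals after the group means were removed, with lines between roles and colour from blue (-1) to red (1). Red blocks cover the fibrillar collagens, the collagen VI group, Loxl1, Lum, Fn1 and Postn, and pale rows mark P4ha2, Lamb1, Lox, Eln and Fmod.

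A wider list of other matrix genes, their receptors and their TGF-beta regulators gave 5 of 95 genes higher and 3 lower in the averaged restriction contrast, 8.42% against the 8.75% of all genes. Ccn5, a matricellular gene of the CCN family, rose by 0.78 ± 0.18 (adjusted p = 0.00487), Smoc1, a basement membrane glycoprotein gene, by 0.77 ± 0.20 (adjusted p = 0.0132) and Tnxb (tenascin-X) by 0.58 ± 0.15 (adjusted p = 0.0144). Lama4, a laminin chain of vessels and fat, rose by 0.49 ± 0.12 (adjusted p = 0.0103) and Adamts1, a proteoglycan-cleaving protease gene, by 0.25 ± 0.07 (adjusted p = 0.0232). Spon1 (spondin-1) fell by 0.99 (standard error 0.27, adjusted p = 0.0179), the basement membrane proteoglycan gene Agrn (agrin) by 0.38 (standard error 0.11, adjusted p = 0.0316) and the integrin gene Itgb5 by 0.36 (standard error 0.10, adjusted p = 0.0213). Of the 10 other collagen genes none passed by limma, nor did any of the 11 TGF-beta genes (3 in each with an unadjusted p under 0.05). With the run block 13 of the 95 rose and 7 fell, against 8.63% of all genes higher and 10.1% lower (18.8% in either direction). The added genes included Smad4 and Smad7, both lower.

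Markers of other cells were read beside these results, in the averaged restriction contrast. Of 9 fibroblast markers none passed by limma (0 with an unadjusted p under 0.05), and their median difference was -0.10. Summed fibroblast signals ran from 9797 to 15711 in AL, 8276 to 16876 in AL+EX, 8230.1 to 17656 in CR and 9207 to 16474 in CR+EX, which overlap throughout. Smooth muscle markers (0 of 10, median 0.11, 2 with an unadjusted p under 0.05) and endothelial markers (0 of 9, median 0.11, 1 with an unadjusted p under 0.05) did not pass. All 11 luminal epithelium markers were lower, with a median of -0.55, and 2 passed (Cd24a and Wfdc2). Without run 4, 10 of the 11 passed. Summed luminal signals ran from 6503 to 31362 (median 24658) in AL, from 7000.1 to 32810.4 (median 18439) in AL+EX, from 4002 to 23083 (median 15834) in CR and from 9467 to 22271 (median 14072) in CR+EX. Of the other lists, 2 of 8 adipocyte, 1 of 3 Schwann cell and 1 of 8 macrophage markers passed by limma, against 8.75% of all genes. Of 4 mast cell markers none passed, and 3 had an unadjusted p under 0.05. None passed among the basal epithelium, skeletal muscle, T lymphocyte and skin markers. The part of the lower luminal markers, or of any other list, in the matrix differences was not tested.

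None of the 8 B lymphocyte markers passed (0 with an unadjusted p under 0.05). They had a median difference of -0.42, and their mean correlated with the matrix genes by -0.58 to 0.46 over 37 arrays (median r = -0.10). Without the 15 arrays high in these genes, which leaves 22, no matrix gene passed (6 had an unadjusted p under 0.05) against 5.35% of all genes, and 27 of 46 differences were above 0. In those 22 arrays Serpinh1 differed by 0.80 ± 0.26 (adjusted p = 0.0711), Fbln1 by 0.49 ± 0.16 (adjusted p = 0.073) and Mgp by 0.52 ± 0.23 (adjusted p = 0.186). Col6a1 differed by 0.25 ± 0.21 (adjusted p = 0.536), and the median of the list was 0.04. Without the 5 arrays with a high Gapdh ratio, Fbln1, Mgp and Serpinh1 passed (0.66, 0.58 and 0.79), all 3 higher, 6.52% of the matrix genes against 6.69% of all genes in either direction and 3.31% higher. Between pairs of groups, leaving out the arrays high in B lymphocyte genes left 0 matrix genes between CR and AL, CR+EX and AL, CR+EX and AL+EX, and CR and AL+EX by limma (8, 6, 5 and 4 with an unadjusted p under 0.05), against 0.0968%, 0.0323%, 0.635% and 0.14% of all genes. Leaving out the arrays with a high Gapdh ratio gave 0, 0, 0 and 1 (4, 2, 15 and 15 with an unadjusted p under 0.05), against 0.108%, 0.194%, 2.35% and 2.36%.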

How the data were processed

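The authors deposited 1 signal intensity per probe set and array on a linear scale, 22690 probe sets on 37 arrays. The submitters' processing notes list GCOS version 1 without its role, and the signal algorithm is not given in the sources used here. Signals were converted to log2(signal + 16) from the deposited intensities without further scaling. Gene names came from the platform's annotation, updated through Entrez IDs, with 20380 probe sets naming 1 gene, 691 several and 1555 none. Of the 89 probe sets of the 46 matrix genes, the brightest per gene was used. Of the other 43, 33 differed in the same direction in the averaged restriction contrast. The dimmest 25% of genes (signal below 88.7) were left out.

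Group means were fitted with limma 3.58.1 in R 4.3.3 (33 residual degrees of freedom, trended empirical Bayes), with 9 two-sided contrasts. Benjamini-Hochberg adjustment was made over 9295 genes. The code was tried on simulated data with independent noise per gene, the same spread in all groups and no run effect. Such data lack the run differences and correlations seen here, so they do not test the fit for these arrays. The number of arrays limits the precision. Alternatives were a run block, leaving out runs or arrays, other offsets, filters, scalings and probe set choices. Leaving out each of runs 1 to 3, and the restriction by run test, were chosen after seeing the data.

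The matrix genes and lists were chosen with earlier results of these data known. Genes past the threshold with all arrays, with the run block or without run 4 were described in full, with the smallest p where none passed, and 11 genes always (Col1a1, Col1a2, Col3a1, Col4a1, Col6a1, Fn1, Sparc, Dcn, Lox, Mmp2 and Timp2). Samples are separate animals. Promoters came from RefSeq GRCm38.p6, and protein sequences were not used here.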

Additional observations from a re-analysis of the deposited data

Results flagged for a closer look

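In 8 of 184 sets of values, 1 set per matrix gene and group, a single animal stood apart from the rest of its group by Dixon's criterion on the log2(signal + 16) scale. Chance flags about 1 in 20 such sets, and 8 of 184 is 4.35%. CR replicate 9 was the highest of its group for Col1a2 (13.83, next 12.43), Lum (11.78, next 10.76) and Postn (13.19, next 11.66), which are a collagen chain, a collagen-binding proteoglycan and periostin. Col18a1, a basement membrane collagen gene, was lowest in AL replicate 9 (7.02, next 8.33) and in AL+EX replicate 7 (5.93, next 8.21). Serpinh1 was lowest in AL replicate 8 (7.71, next 9.53), Col4a1 in CR+EX replicate 8 (10.91, next 11.37) and Timp1, a metalloproteinase inhibitor gene, in CR+EX replicate 6 (5.49, next 6.89). Of these sets only that of Serpinh1 belongs to a gene past the threshold in the averaged restriction contrast, and its difference was 0.79 to 0.98 when any 1 array was left out.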

How the results depend on the processing

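The genes past the threshold kept their direction under the alternatives tried, while of all 46 differences 39 were above 0 with all arrays, 32 without run 4 and 27 without the 15 B lymphocyte arrays. No paired analysis was possible because the replicate numbers only follow accession order and pair no animals across groups; the run block is a block by run, not by pair. The averaged restriction contrast had 9 matrix genes past the threshold, against 8.75% of all genes. It gave 4 without run 4 (9.32% of all genes), 17 with the run block (18.8%) and 3 without the arrays of high Gapdh ratio (6.69%). Without the 15 B lymphocyte arrays it gave 0 (5.35%), and without runs 1, 2 and 3 it gave 4, 16 and 0 (8.33%, 6.29% and 0.742%). Leaving out any 1 array gave 4 to 12, against 6.57% to 10.33% of all genes, with 4 without AL+EX replicate 6 or AL+EX replicate 7. CR against AL (2 genes, 0.441% of all genes) gave 0 without run 4 (0.624%), without the B lymphocyte arrays (0.0968%) and without the Gapdh arrays (0.108%). It gave 1 with no filter (0.153%), 5 with the run block (6.16%) and 0 to 3 without 1 array. CR+EX against AL (1 gene, 0.624% of all genes) gave 2 with the run block (3.73%), median centring or quantile normalization, and 3 with the run block without run 4 (4.12%). It gave 0 without the B lymphocyte or Gapdh arrays (0.0323% and 0.194%) and 1 to 2 without 1 array. CR+EX against AL+EX (0 genes, 1.65% of all genes) gave 4 with the run block, with or without run 4 (6% and 6.46%). CR against AL+EX (0 genes, 1.97% of all genes) gave 10 with the run block (8.1%) and 5 with it without run 4 (5.68%). It gave 1 each without the Gapdh arrays (2.36%), with an offset of 64 or with the lowest 50% left out, and 0 to 3 without 1 array. The other matrix genes (8 past the threshold in the averaged restriction contrast, 8.75% of all genes) gave 20 with the run block (18.8%) and 23 with it without run 4 (17.6%). The causes were not tested. Median centring turned the split of all genes from 389 higher and 424 lower to 491 and 180, and quantile normalization to 425 and 313, with 11 and 9 matrix genes higher and P4ha2 no longer called. Leaving out AL+EX replicate 6 or 7 ended the calls of Col14a1 and Col6a1, as did leaving out run 1. Leaving out 1 array ended the call of Col15a1 in 16 of 37 fits, of P4ha2 in 18 and of P4ha1 in 19, in each case also without AL replicate 8, AL+EX replicate 6 or AL+EX replicate 7, while Serpinh1, Mgp, Fbln1 and Pcolce passed in all 37. How precision depends on the brightness of a probe set was not tested.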
